A study of Mus musculus with 6 samples.

Results

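The hair follicle signalling genes described here are 37 genes of the Hedgehog, WNT, ectodysplasin (EDA) and BMP and TGF-beta pathways, with transcription factors of the follicle. They were listed by name and counted as measured where a probe carried the gene's symbol and had a detection score above 0.95 on at least 3 arrays. A total of 36 had a probe and 31 were measured, of 11354 named genes measured on the arrays. The 31 comprised 6 of 7 Hedgehog genes, 10 of 11 WNT genes, 2 of 3 EDA genes, 8 of 9 BMP and TGF-beta genes and 5 of 7 transcription factors. RNA came from back skin epidermis of C57BL6 mouse embryos at E17.5, the embryonic day of the labels, with 3 wild-type samples and 3 samples labelled as mutants of Harlequin Ichthyosis, an inherited disorder of cornification with a failed skin barrier. All 6 epidermal peels were lifted off the dermis with 5 mM EDTA, applied at 37 °C for 1 hour. The labels name neither the mutated gene nor the allele, so no targeted gene was checked here, and they do not give the sex, litter or pooling of the embryos. Sample titles carry the prefix bo20 for wild-type and mutant arrays 1 and 2 and bo12 for array 3 of each group, and the labels do not say what the prefix marks.

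Hair follicles form where the embryonic epidermis thickens into placodes above condensing dermal cells. WNT ligands act through Frizzled receptors and beta-catenin with LEF and TCF factors, and EDA acts through its receptor and NF-kappaB, to establish placodes. BMPs restrain placodes and later act in hair differentiation, while SHH from the placode signals through PTCH1, SMO and the GLI factors to drive downgrowth of the follicle. In mouse back skin late in gestation, follicles of successive waves stand at different stages at the same time.

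Mean raw intensity ranged from 260 to 462.5 between arrays, and each array detected 17159 to 18422 of 45281 probes. Wild-type array 3 stood apart: its Pearson's r with the other arrays over kept probes was 0.836 to 0.891, against 0.965 to 0.990 among the other arrays. It gave the highest level of the 6 arrays for 18 of the 31 signalling genes (58.1%, against 49% of all kept probes) and the lowest for 12 (38.7%, against 27.9%). The difference of each signalling gene is therefore given with all arrays and with wild-type array 3 left out. Mutant array 3 stays in the second comparison, so bo12 is then present in the mutants alone and prefix is not balanced. With bo20 alone the median log2 difference, mutant minus wild type, was -0.18 over the 31 genes, against -0.03 without wild-type array 3. Basal keratinocyte genes (7 of 7, among them Krt5 and Krt14) and suprabasal genes (6 of 7, among them Krt1 and Krt10) were measured, but so were 11 of 12 dermal fibroblast genes and 6 of 6 skeletal muscle genes. A difference in a peel may come from fewer cells of a type or less RNA per cell, and these cannot be told apart.

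None of the signalling genes passed the test between mutant and wild type. In limma, 0 of 31 had an adjusted p under 0.05, as did 0% of the 18358 probes tested, and the adjusted p of the 31 genes ran from 0.753 to 0.981. Over 16 alternatives in processing or in the arrays used, the smallest adjusted p of any of them was 0.132, for Dlx3. At an unadjusted p under 0.05, 3 genes were lower in the mutants (Gli2, Ptch1 and Dlx3, 9.68% against 3.39% of all probes) and 1 was higher (Id2, 3.23% against 2.47%). The levels of the groups did not overlap for 4 genes that were lower in the mutants (Gli2, Bmp7, Sox9 and Dlx3, 12.9% against 7.68%) and 1 that was higher (Id2, 3.23% against 5.63%). The 95% interval of the difference held 0 for 27 of the 31 genes, and its standard error had a median of 0.32 log2 units, so differences of the size seen for most genes were not detectable with 3 arrays per group.

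Leaving out wild-type array 3 gave 0 adjusted calls among the signalling genes, against 0.278% of all probes. At an unadjusted p under 0.05, Dlx3 was then lower (3.23% of the genes against 3.98%), and Id2 and Eda2r were higher (6.45% against 5.74%). Eda2r was close to background and passed the detection filter through the mutant arrays. With the title prefix as a block, 0 passed the adjusted threshold (0.261% of all probes did), while 7 were lower at an unadjusted p under 0.05 (22.6% against 7.23%) and 3 higher (9.68% against 5.87%). With the replicate number as a block, 0 passed (0% of all probes), and 5 were lower (16.1% against 5.31%) and 1 higher (3.23% against 3.9%) at an unadjusted p under 0.05. Over the 31 genes the median log2 difference, mutant minus wild type, was -0.03 over 6 arrays and also -0.03 without wild-type array 3, against -0.04 and 0.01 for all kept probes. With all arrays 15 genes were above 0 and 16 below, against 8454 above and 9904 below among all kept probes. Without wild-type array 3 the numbers were 12 and 19, against 9341 and 9017.

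**Figure D1:**
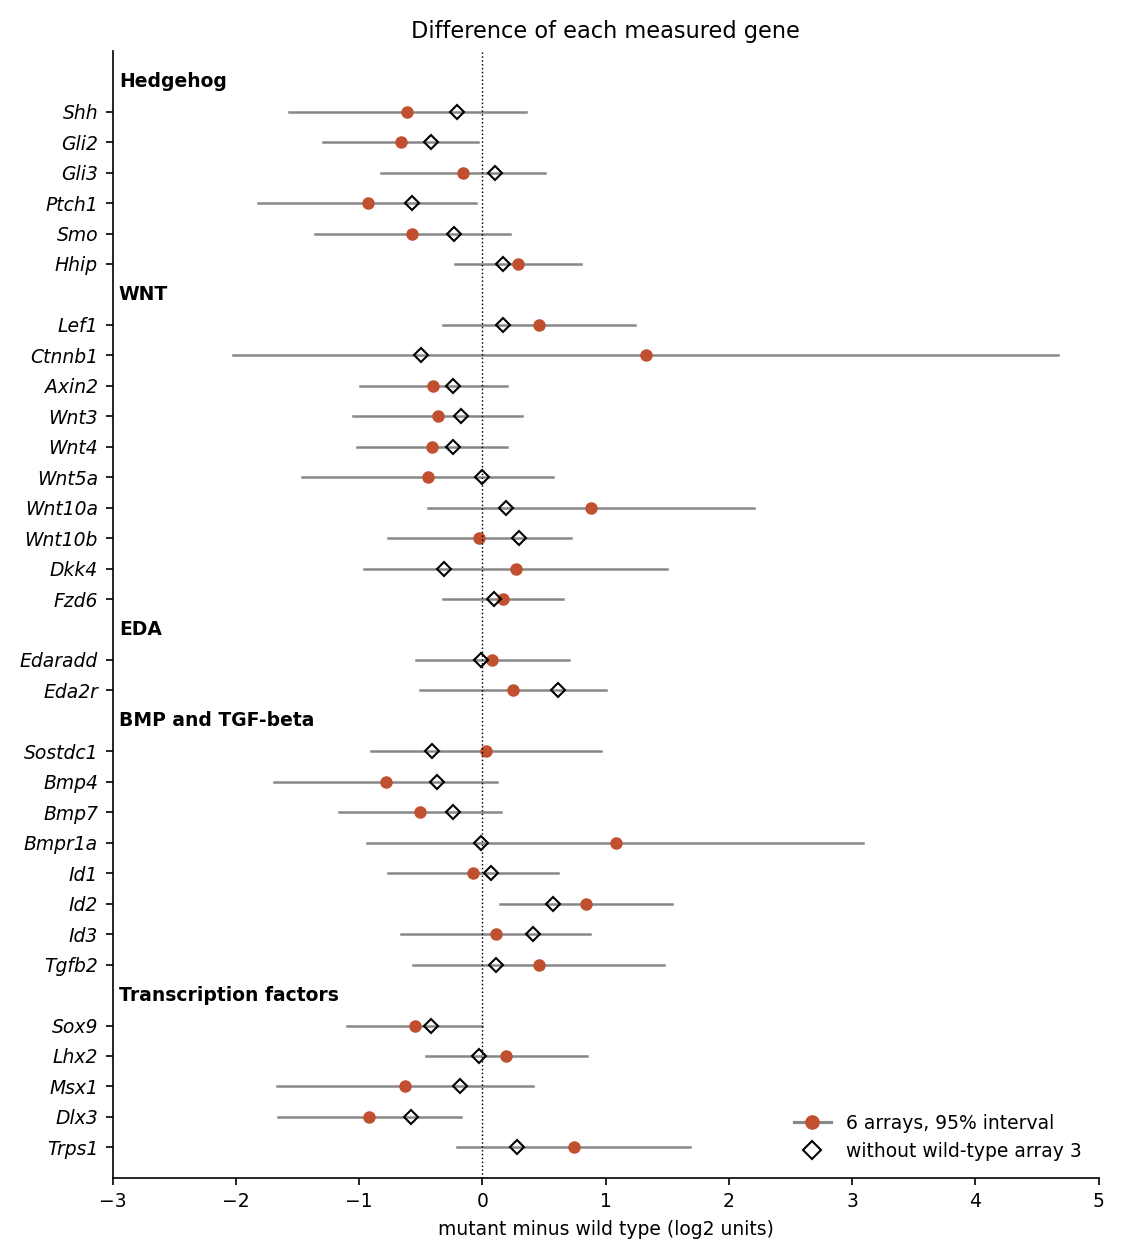
Difference in log2 level, mutant minus wild type, of each of the 31 measured genes by pathway. Filled circles with lines give the limma estimate and its 95% interval over 6 arrays, and open diamonds give the estimate without wild-type array 3. The interval of Ctnnb1 runs from -2.02 to 4.67, and its diamond is at -0.50.

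Hedgehog genes held 2 of the 3 genes that were lower at an unadjusted p under 0.05. Their median log2 difference was -0.59 over 6 genes, with 1 above 0 and 5 below, and -0.22 without wild-type array 3. It was 0.01 under median scaling, which put the median of all kept probes at 0.42. Wild-type array 3 read 0.99 above the arrays' median across these genes, against 0.22 across all kept probes, and the share of the Hedgehog difference that this array carries was not tested beyond leaving it out.

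Shh, the ligand made by the placode and the hair matrix, read 8.32, 8.10 and 9.39 log2 units in wild type and 7.46, 8.26 and 8.29 in the mutants, listed by replicate number as all levels below. Wild-type array 3 was the highest and mutant array 1 the lowest, and the groups overlapped. The difference was -0.61 (SE 0.41, limma adjusted p = 0.791), and -0.21 without wild-type array 3. A second Shh probe, at lower levels, differed by -0.01, or by 0.25 without that array.

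Ptch1, the receptor that restrains SMO until it binds ligand and itself a transcriptional target of the pathway, read 8.71, 8.46 and 9.64 in wild type and 7.70, 7.81 and 8.50 in the mutants. The group means were 8.94 ± 0.62 and 8.00 ± 0.44 (SD, n = 3), and the highest mutant array lay just above the lowest wild-type array. Wild type was 1.91-fold above mutant (95% interval 1.03 to 3.54, log2 difference -0.93, limma adjusted p = 0.791). Within bo20 the difference was -0.84 and within bo12 -1.13, and leaving out wild-type array 3 gave -0.57. With the prefix as a block the adjusted p was 0.163. A second, dimmer Ptch1 probe that was detected on 4 arrays differed by -0.10, or by 0.06 without wild-type array 3.

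Gli2, the main activating transcription factor of the pathway in skin, read 9.68, 9.53 and 10.31 in wild type and 9.21, 9.01 and 9.31 in the mutants. All 3 mutant arrays were below all 3 wild-type arrays. Wild type was 1.58-fold above mutant (95% interval 1.03 to 2.45, log2 difference -0.66, SE 0.27, limma adjusted p = 0.791). The difference was -0.50 within bo20 and -1.0 within bo12. Without wild-type array 3 it was -0.42, with an unadjusted p of 0.0513, and a second Gli2 probe differed by -0.70.

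Smo, the membrane protein that carries the signal once PTCH1 releases it, read 8.38, 8.04 and 9.22 in wild type and 7.86, 7.84 and 8.22 in the mutants, a difference of -0.57 (SE 0.33) that was -0.23 without wild-type array 3. The other 2 Smo probes differed by -0.04 and -0.17 with all arrays and by 0.28 and 0.32 without that array, and on the last of these both bo20 mutant arrays were above both wild-type arrays. Gli3, which acts mainly as a repressor, read 8.50, 8.90 and 9.48 against 8.89, 8.72 and 8.81, a difference of -0.16. The mutant arrays lay within the wild-type range for Gli3, and its sign turned to 0.10 without wild-type array 3. Hhip, a membrane protein that binds and sequesters the ligand, read 4.91, 4.86 and 4.49 against 5.13, 4.90 and 5.09, a difference of 0.29 (SE 0.22) that was 0.17 without wild-type array 3, and was the 1 Hedgehog gene above 0. Gli1, whose transcription follows pathway activity, was not detected on any array, at levels between 4.24 and 4.40, so that readout of the pathway was missing.

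Promoter sequences are shown for the genes with an unadjusted p under 0.05 that have an entry in the RefSeq promoter table, which are Gli2, Ptch1 and Id2; Dlx3 has no entry there. Each run covers 250 bases before to 50 after the gene's start on the minus strand of mouse build GRCm38.p6, 5′ to 3′, with the letters GGCGCC, a GC-rich element that SMAD proteins can bind, in capitals.
Gli2 (chr1:119053570-119053869): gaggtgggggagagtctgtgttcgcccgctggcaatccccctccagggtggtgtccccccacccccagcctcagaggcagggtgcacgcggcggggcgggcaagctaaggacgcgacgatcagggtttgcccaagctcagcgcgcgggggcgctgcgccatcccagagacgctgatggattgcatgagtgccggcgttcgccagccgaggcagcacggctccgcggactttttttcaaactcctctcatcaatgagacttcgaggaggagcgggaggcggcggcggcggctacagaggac
Ptch1 (chr13:63565686-63565985): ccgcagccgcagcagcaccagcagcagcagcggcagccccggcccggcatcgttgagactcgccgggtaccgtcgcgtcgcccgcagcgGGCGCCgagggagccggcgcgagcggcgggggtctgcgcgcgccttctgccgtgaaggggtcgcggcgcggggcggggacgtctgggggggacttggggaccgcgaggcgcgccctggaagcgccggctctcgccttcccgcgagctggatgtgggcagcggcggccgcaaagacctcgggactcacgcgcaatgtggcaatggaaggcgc
Id2 (chr12:25096043-25096342): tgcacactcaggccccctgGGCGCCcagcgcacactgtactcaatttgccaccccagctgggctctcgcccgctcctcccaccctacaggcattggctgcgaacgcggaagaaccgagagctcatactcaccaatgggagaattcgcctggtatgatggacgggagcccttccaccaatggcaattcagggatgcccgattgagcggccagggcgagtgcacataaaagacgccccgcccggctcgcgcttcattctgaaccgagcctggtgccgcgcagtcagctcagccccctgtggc
The capitals begin at position -161 from the start of Ptch1 and -231 from that of Id2, and Gli2 has no match. Of 24 signalling genes with an entry, 7 held GGCGCC (Bmpr1a, Ctnnb1, Id2, Lef1, Lhx2, Ptch1 and Wnt4), a motif that reads the same on both strands and is found in 11.9% of the 32851 promoters in the table. The 24 genes have 29 promoters there, so the count by gene and the share by promoter are in unlike units, for each motif. The GLI motif GACCACCCA, searched on both strands, occurred in 0 of the 24 and in 0.253% of all promoters. The TCF and LEF motif CTTTGAT, also on both strands, occurred in 1, Edar, and in 3.73% of all promoters. None of these motifs contains another, and a match describes the sequence only.

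WNT genes divided evenly, with 5 above 0 and 5 below and a median log2 difference of 0.07 over 10 genes. The median was -0.09 without wild-type array 3, and 0 of the 10 had an unadjusted p under 0.05. Among the ligands, Wnt4, Wnt3 and Wnt5a were below 0 and Wnt10a was above.

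Wnt4 read 9.31, 9.03 and 9.66 in wild type and 8.92, 8.65 and 9.21 in the mutants, a difference of -0.41 (SE 0.26) that was -0.39 in bo20, -0.45 in bo12 and -0.24 with wild-type array 3 left out. Its second probe differed by -0.30. Wnt3 read 5.87, 6.32 and 6.68 against 5.82, 5.67 and 6.28, a difference of -0.36 (SE 0.29) that was -0.35 in bo20, -0.40 in bo12 and -0.17 with wild-type array 3 left out. Both genes encode ligands expressed in epidermis and follicle, and for both the groups overlapped. Wnt5a, which acts largely without beta-catenin, read 7.32, 7.92 and 8.94 against 7.43, 7.38 and 8.03, a difference of -0.44 (SE 0.43) that was 0.00 without wild-type array 3. Its second probe differed by 0.29. Wild-type array 3 was the highest array on the first Wnt5a probe and the lowest on the second.

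Wnt10a and Wnt10b are early ligands of the placode. Wnt10a read 8.88, 8.74 and 6.75 in wild type and 9.10, 9.16 and 8.75 in the mutants, a difference of 0.88 (SE 0.56) that was 0.19 without wild-type array 3, where the level was lowest. Wnt10b read 6.51, 6.74 and 7.62 against 6.99, 6.82 and 6.98, a difference of -0.03 that became 0.30 without that array. In bo20 both mutant arrays were above both wild-type arrays for each of these ligands, by 0.32 for Wnt10a and 0.28 for Wnt10b.

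Fzd6, a Frizzled receptor that orients hair follicles, was the steadiest WNT gene across arrays, at 7.21, 7.42 and 7.09 in wild type and 7.49, 7.26 and 7.48 in the mutants. Its difference was 0.17 (SE 0.21, 95% interval -0.32 to 0.65), or 0.09 without wild-type array 3, and its second probe gave 0.19. Ctnnb1, which encodes beta-catenin, read 12.06, 12.21 and 6.65 in wild type and 11.93, 12.10 and 10.87 in the mutants. The difference of 1.33 (SE 1.42) came from wild-type array 3, and without it the difference was -0.50, with mutant array 3 then the lowest. In bo20 the 4 arrays lay between 11.93 and 12.21. The other Ctnnb1 probes differed by 1.26 and -0.50.

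Lef1, a DNA-binding partner of beta-catenin and a placode marker, read 4.90, 5.58 and 4.32 in wild type and 5.45, 5.43 and 5.31 in the mutants. It was close to background, undetected on 1 wild-type array, and the difference was 0.46 (SE 0.33, limma adjusted p = 0.791) or 0.17 without wild-type array 3. A second Lef1 probe differed by -0.34. Axin2, a feedback inhibitor and a common readout of beta-catenin signalling, read 8.37, 8.10 and 8.71 against 7.76, 7.95 and 8.27. The groups overlapped at 1 mutant array, and the difference was -0.40 (SE 0.25, limma adjusted p = 0.791), with -0.38 in bo20, -0.43 in bo12 and -0.24 when wild-type array 3 was left out. Dkk4, a secreted WNT inhibitor of the placode, read 5.98, 6.75 and 4.64 against 5.80, 6.44 and 5.93, a difference of 0.27 (SE 0.52) that was -0.31 without wild-type array 3. Its probe was detected on 2 wild-type and 3 mutant arrays.

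No probe carried the symbol Tcf3. Tcf3 is an older name of Tcf7l1, a repressor of WNT targets in follicle stem cells, and the current symbol of the gene that the array calls Tcfe2a, so neither was counted. Tcf7l1 read 9.78, 9.64 and 10.57 in wild type and 9.36, 9.33 and 10.13 in the mutants, a difference of -0.39 (SE 0.35, limma adjusted p = 0.793) that was -0.10 without wild-type array 3. The 2 Tcfe2a probes differed by -0.01 and 0.08.

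**Figure D2:**
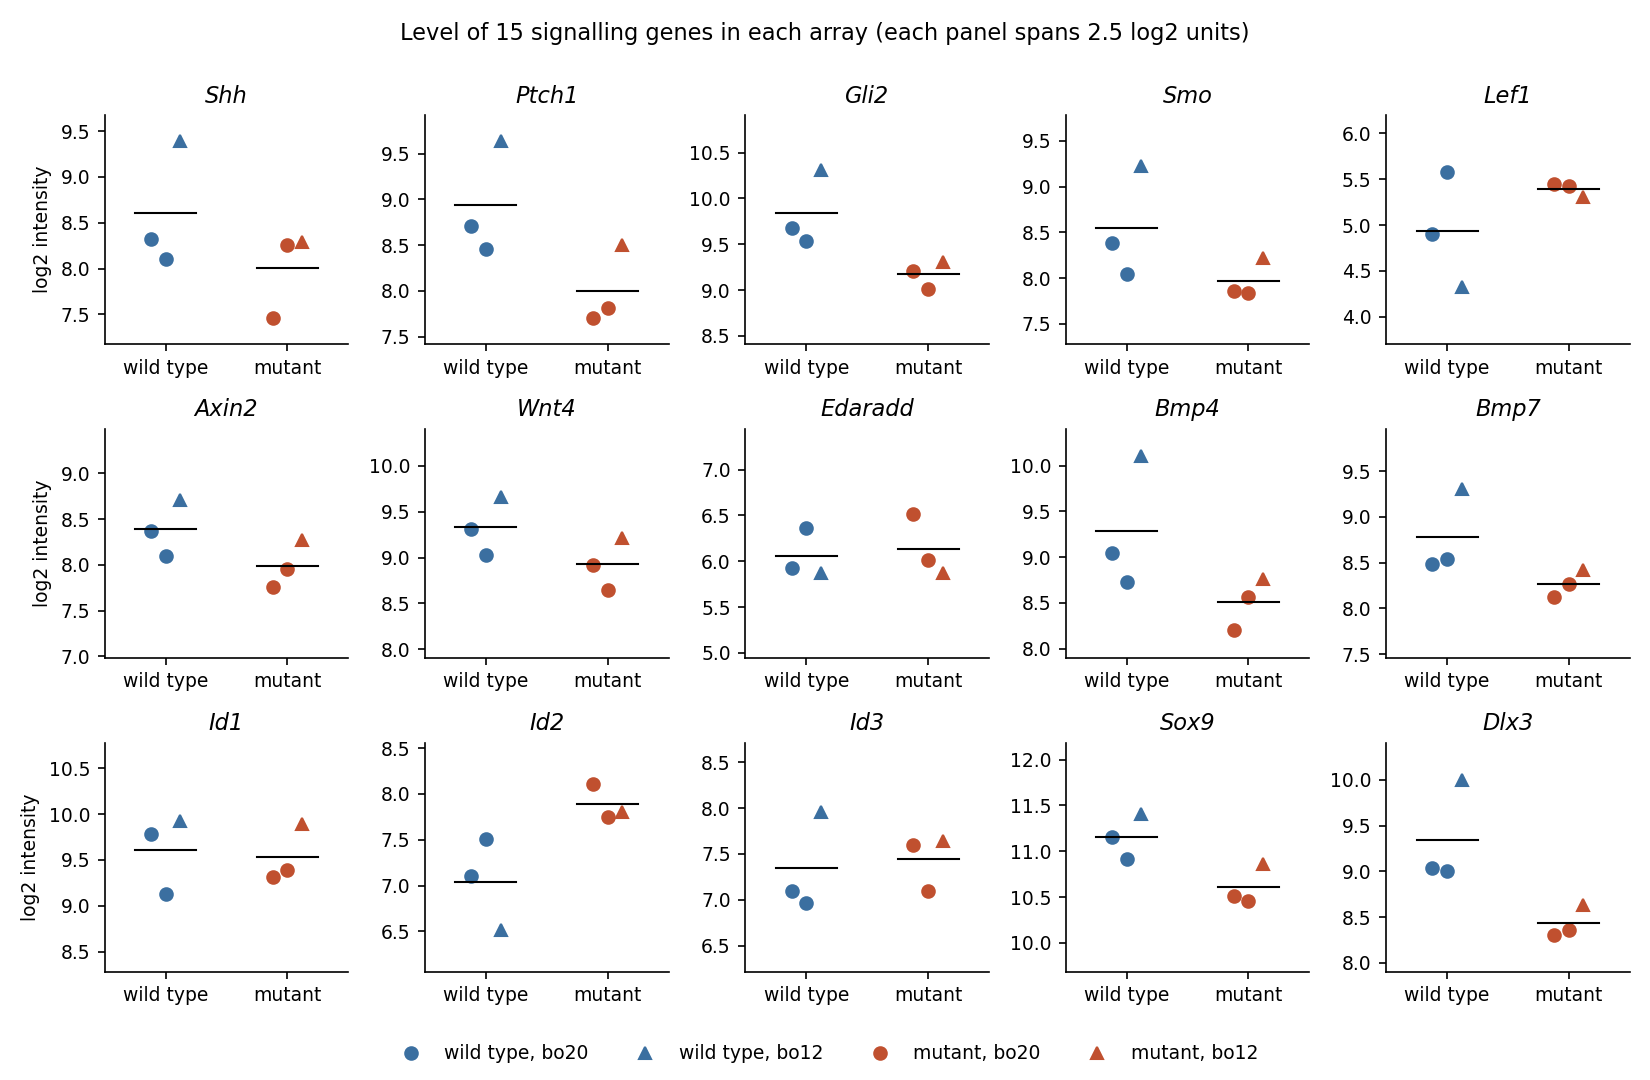
Normalized log2 intensity of 15 signalling genes in each array, with wild type at left and mutant at right, circles for bo20, triangles for bo12 and a line at each group mean. Every panel spans the same height in log2 units. Gli2, Bmp7, Sox9 and Dlx3 have every mutant array below every wild-type array, and Id2 has every mutant array above.

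EDA genes were measured at 2 of 3. Edar, the receptor of the placode, was not detected on any array, at levels between 4.36 and 4.54. Edaradd, its adaptor, read 5.93, 6.36 and 5.87 in wild type and 6.52, 6.01 and 5.87 in the mutants. The groups overlapped, and the difference was 0.08 (SE 0.26, limma adjusted p = 0.925) or -0.01 without wild-type array 3. A second Edaradd probe differed by 0.02, or by 0.44 without that array.

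Eda2r, a receptor for the other EDA isoform, read 4.59, 4.56 and 5.53 in wild type and 5.34, 5.21 and 4.87 in the mutants, detected on 1 and 3 arrays. The difference was 0.25 (SE 0.32) over 6 arrays and 0.61 without wild-type array 3 (unadjusted p = 0.0199, limma adjusted p = 0.398). The probe passed the filter through the mutant arrays, and at most 1 of wild-type arrays 1 and 2 detected it. Without wild-type array 3 the detection filter by itself therefore favours a higher mutant level. In bo20 both mutant arrays were above both wild-type arrays by 0.70 on average, while in bo12 the difference was -0.66.

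BMP and TGF-beta genes had a median log2 difference of 0.07 over 8 genes, or 0.03 without wild-type array 3, with 5 above 0 and 3 below. The ligands Bmp4 and Bmp7 were below 0, and Id2, an inhibitor of helix-loop-helix factors induced by BMP, was above.

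Bmp4, a ligand of the dermal condensate and hair matrix, read 9.04, 8.73 and 10.10 in wild type and 8.20, 8.56 and 8.76 in the mutants. Mutant array 3 lay just above wild-type array 2, and the difference was -0.78 (SE 0.38, unadjusted p = 0.0798, limma adjusted p = 0.791). In bo20 it came to -0.50 and in bo12 to -1.34, and without wild-type array 3 to -0.37. Bmp7, a related ligand of epidermis and dermis, read 8.49, 8.54 and 9.30 against 8.12, 8.27 and 8.42, a difference of -0.51 (SE 0.28) with no overlap, which was -0.24 without wild-type array 3. Bmp2, a ligand of the placode, was not detected on any array, at levels between 4.27 and 4.46.

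Bmpr1a, a BMP receptor needed for hair shaft differentiation, read 7.60, 7.70 and 4.38 in wild type and 7.89, 7.80 and 7.22 in the mutants. The difference of 1.08 (SE 0.85) was -0.01 without wild-type array 3, where the probe was not detected. Its second probe read 7.57 on that array, the highest of the 6. The second probe differed by 0.38 with all arrays and by 0.80 without that array (unadjusted p = 0.0124, limma adjusted p = 0.36). Sostdc1, a secreted inhibitor of both BMP and WNT, read 10.15, 10.28 and 8.88 against 9.99, 9.56 and 9.84. Its difference of 0.03 (SE 0.39) was -0.41 without wild-type array 3, and in bo20 both mutant arrays were below both wild-type arrays.

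Id1, Id2 and Id3 are transcriptional targets of BMP signalling. Id2 read 7.11, 7.51 and 6.51 in wild type and 8.11, 7.75 and 7.80 in the mutants, with means of 7.04 ± 0.50 and 7.88 ± 0.19 (SD, n = 3). All mutant arrays were above all wild-type arrays. Mutant was 1.79-fold above wild type (95% interval 1.10 to 2.91, log2 difference 0.84, SE 0.30, limma adjusted p = 0.761). The Id2 difference was 0.62 in bo20 and 1.29 in bo12, and it was 0.57 without wild-type array 3 (unadjusted p = 0.0298).

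Id1 read 9.78, 9.13 and 9.93 in wild type and 9.31, 9.39 and 9.89 in the mutants, a difference of -0.08 (SE 0.29, limma adjusted p = 0.929) that was 0.07 without wild-type array 3. Id3 read 7.10, 6.97 and 7.96 against 7.60, 7.10 and 7.64, a difference of 0.11 (SE 0.33, limma adjusted p = 0.922) that was 0.41 without it. The groups overlapped for both, and the 95% intervals, -0.77 to 0.61 for Id1 and -0.66 to 0.87 for Id3, allow differences in either direction. Tgfb2, a ligand that acts in early follicle growth, read 6.50, 6.96 and 5.68 against 6.94, 7.40 and 6.17, a difference of 0.46 (SE 0.43). It was 0.44 in bo20 and 0.49 in bo12, and 0.11 without wild-type array 3.

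Transcription factors of the follicle had a median log2 difference of -0.55 over 5 genes, with 2 above 0 and 3 below, and -0.18 without wild-type array 3. Median scaling gave -0.02. Foxn1, a regulator of hair keratins, was not detected on any array (4.27 to 4.68), and neither was Msx2, a homeobox factor of the hair matrix (4.30 to 4.47).

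Dlx3, a homeobox factor of the hair matrix and the suprabasal epidermis, read 9.04, 9.0 and 10.0 in wild type and 8.31, 8.36 and 8.63 in the mutants. The means were 9.35 ± 0.56 and 8.43 ± 0.17 (SD, n = 3), and every mutant array was below every wild-type array. Wild type was 1.89-fold above mutant (95% interval 1.13 to 3.15, log2 difference -0.92, SE 0.31, limma adjusted p = 0.753). The difference was -0.69 in bo20 and -1.37 in bo12, and it was -0.58 without wild-type array 3 (unadjusted p = 0.0148, limma adjusted p = 0.372).

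Sox9, which maintains follicle stem cells and the outer root sheath, read 11.15, 10.91 and 11.41 in wild type and 10.51, 10.46 and 10.86 in the mutants. The groups did not overlap, and the difference was -0.55 (SE 0.23, unadjusted p = 0.0503, limma adjusted p = 0.791), with -0.54 in bo20, -0.56 in bo12 and -0.42 when wild-type array 3 was left out. Its second probe read 7.09, 6.99 and 4.95 against 6.31, 6.31 and 6.54. On that probe the difference was 0.04 over 6 arrays and -0.66 without wild-type array 3, the lowest of the 6.

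Msx1, a homeobox factor of early appendages, read 5.59, 5.04 and 6.71 against 5.17, 4.78 and 5.50, a difference of -0.63 (SE 0.44) that was -0.18 without wild-type array 3. Its levels were low, and the probe was detected on 3 wild-type and 2 mutant arrays. Trps1, a GATA-type repressor named for a human syndrome with sparse hair, read 7.03, 7.34 and 5.82 against 7.67, 7.30 and 7.44, a difference of 0.74 (SE 0.40) or 0.28 without wild-type array 3. Its second probe differed by -0.87, and wild-type array 3 was its highest. Lhx2, a factor of follicle stem cells and placodes, was close to background, at 5.09, 5.09 and 4.42 against 4.75, 5.10 and 5.32, a difference of 0.19 (SE 0.28) that was -0.03 without wild-type array 3.

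Within title prefixes, 14 of the 31 genes were below 0 in both bo20 and bo12, 8 were above 0 in both, 8 had opposite signs and 1 was at 0 in bo12. Within bo20, where 2 arrays stand against 2, both mutant arrays were below both wild-type arrays for 11 genes (35.5%, against 22.1% of all probes) and above for 5 (16.1%, against 22.8%). The 11 were Gli2, Ptch1 and Smo of the Hedgehog pathway, Axin2, Wnt3 and Wnt4 of the WNT pathway, Sostdc1, Bmp4 and Bmp7, and Sox9 and Dlx3, each on its brightest probe. The Hedgehog median was -0.36 within bo20 and -1.0 within bo12, and that of the transcription factors -0.34 and -0.56. For WNT genes it was -0.17 and 0.00, for BMP and TGF-beta genes 0.05 and 0.22, and for EDA genes 0.41 and -0.33, against 0.00 and -0.19 for all kept probes. The bo12 values are from 1 array per group, and one of these is wild-type array 3, so the prefix and that array cannot be told apart. A limma test of the bo12 difference against the bo20 difference passed an adjusted p of 0.05 for 4 genes (Ctnnb1, Wnt10a, Eda2r and Bmpr1a, 12.9%), against 10.1% of all probes.

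**Figure D3:**
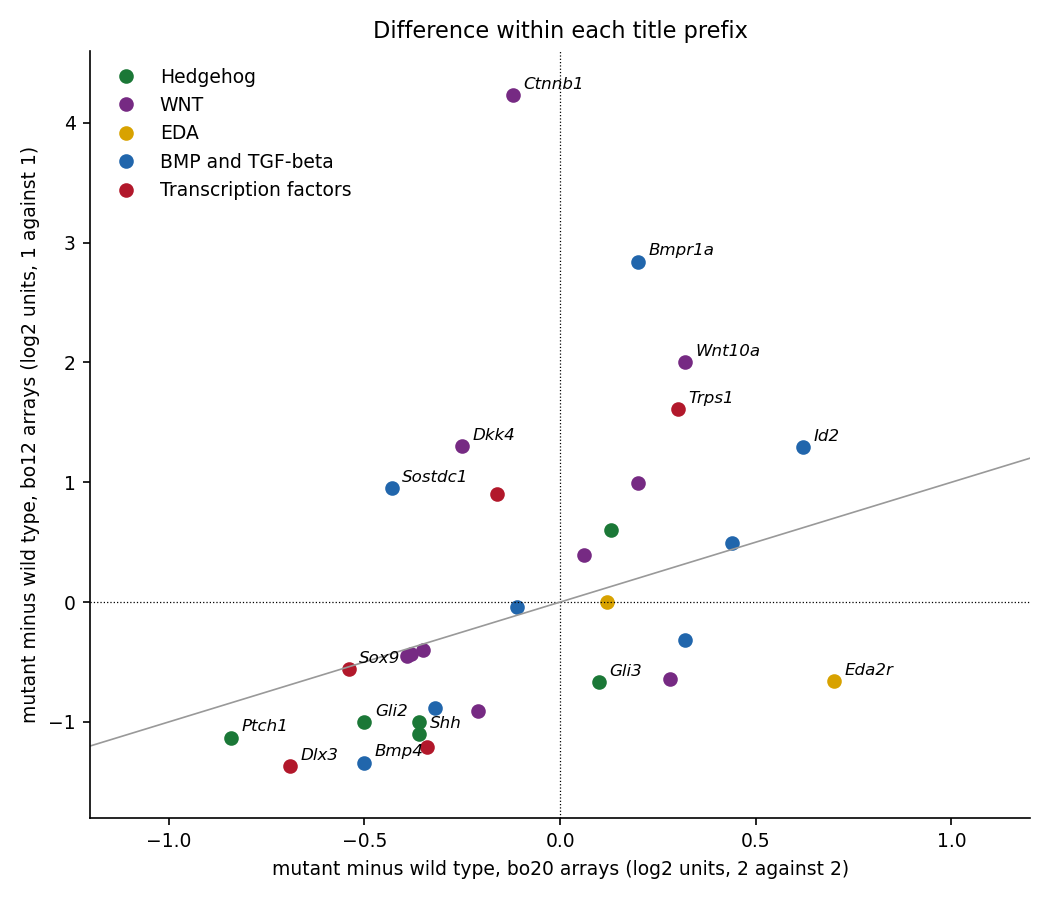
Log2 difference, mutant minus wild type, of each measured gene within bo20 (x axis, 2 arrays against 2) and within bo12 (y axis, 1 array against 1), coloured by pathway, with a grey line where both differences are equal. Ctnnb1 is at -0.12 and 4.23, Bmpr1a at 0.20 and 2.84 and Wnt10a at 0.32 and 2.00, while Ptch1, Dlx3, Gli2 and Sox9 are below 0 on both axes.

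A total of 13 signalling genes had more than 1 kept probe. The sign of the difference differed between probes of 1 gene for 5 of them with all arrays (Lef1, Ctnnb1, Wnt5a, Sox9 and Trps1). Without wild-type array 3 it differed for 8 (Shh, Ptch1, Smo, Lef1, Wnt5a, Edaradd, Bmpr1a and Trps1). In wild-type array 3 itself, probes of the same gene deviated from the other arrays by amounts over 2 log2 units apart for 5 genes. For Ctnnb1 these deviations ran from -5.41 to -0.35, for Bmpr1a from -3.31 to 0.60, and for Trps1 from -1.52 to 2.29. Probes of Gli2, Wnt4 and Fzd6 gave the same sign with and without that array. Which transcripts the probes of 1 gene match was not analysed here.

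**Figure D4:**
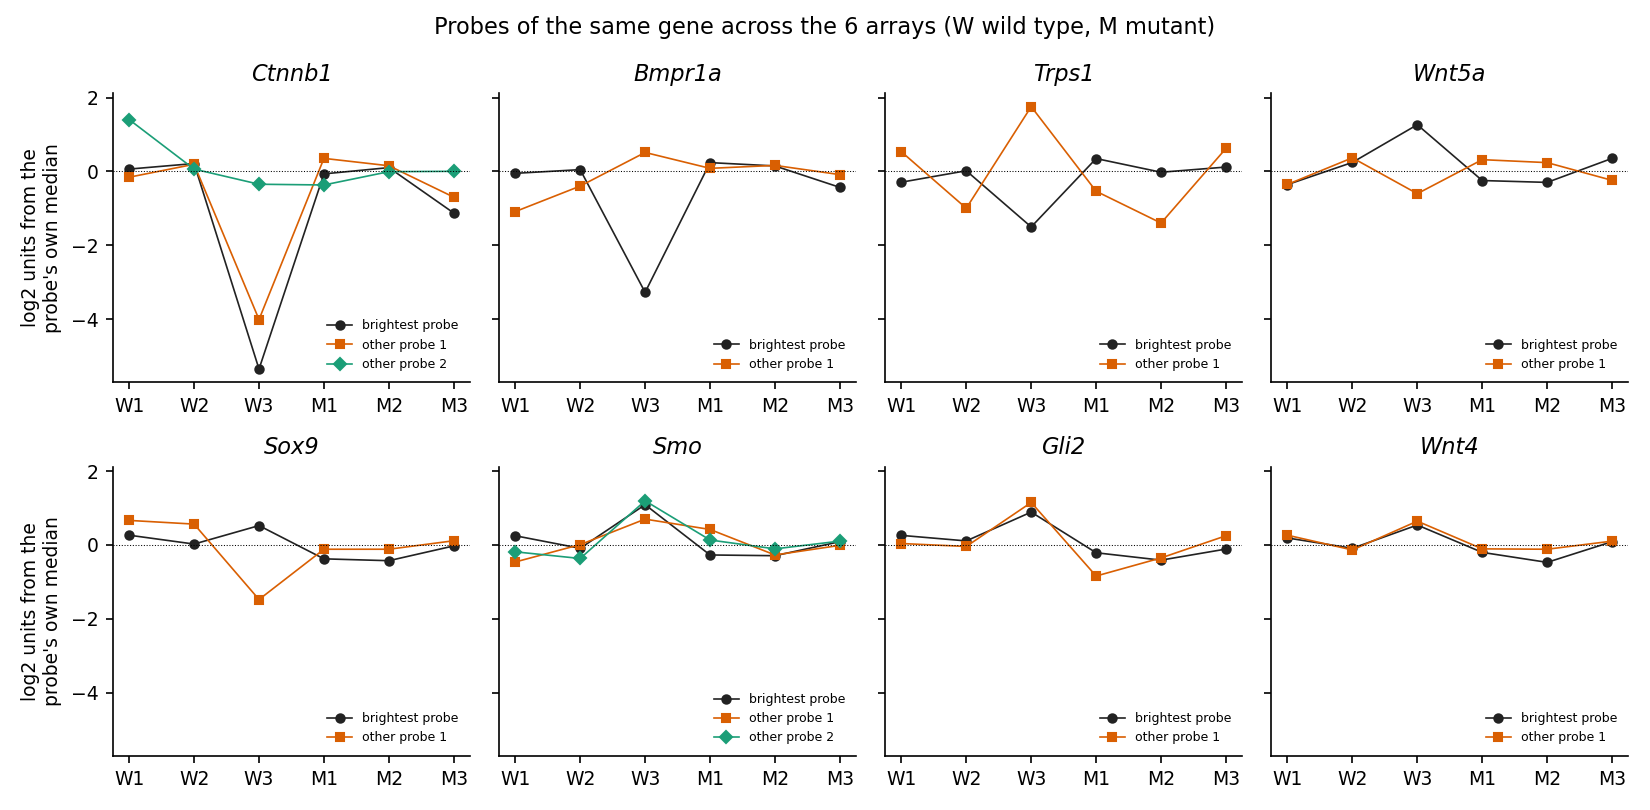
Level of each kept probe of 8 signalling genes, as log2 units from that probe's own median over the 6 arrays (W wild type, M mutant, numbered as in the labels). For Ctnnb1, Bmpr1a, Trps1, Wnt5a and Sox9 the probes part at W3, and for Gli2 and Wnt4 they run together.

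Another 115 pathway and follicle genes were measured in the same fit, and 0 of them passed an adjusted p of 0.05 in limma. With array weights, which give wild-type array 3 the least weight, 2 passed (Nfkbia and Krt32), as did 129 of all 18358 probes. Krt32 was kept through the wild-type arrays alone. Of 42 measured WNT genes outside the set, 12 were above 0 and 30 below, with a median of -0.33 that was -0.11 without wild-type array 3, and at an unadjusted p under 0.05, 3 were lower (7.14%, against 3.39% of all probes) and 0 higher (against 2.47%). They were Wnt7a, an epidermal ligand (-0.73, SE 0.24, unadjusted p = 0.0179), Fzd5, a receptor (-1.09, SE 0.36, unadjusted p = 0.0199), and Apc, a part of the complex that degrades beta-catenin (-0.70). Of 11 other Hedgehog genes, 2 were above 0 and 9 below (median -0.18, or -0.04 without wild-type array 3). The 3 with the smallest p were Ift88 (-0.97), a transport protein of the primary cilium where the pathway signals, Evc2 (-0.54), a ciliary protein, and Sufu (-0.36), an inhibitor of GLI factors.

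Of 21 other BMP and TGF-beta genes, 6 were above 0 and 15 below (median -0.13, or 0.02 without wild-type array 3). Smad5, a BMP signal transducer (-0.73), and Tgfb3, a ligand (-0.91), were below 0, and Twsg1, a BMP-binding protein (0.45), was above. The 10 other EDA and NF-kappaB genes divided into 5 above and 5 below (median 0.02). Nfkbia, the NF-kappaB inhibitor that is itself a target of NF-kappaB, read 9.18, 9.13 and 9.10 in wild type and 10.29, 10.38 and 10.21 in the mutants. The groups lay about 1 log2 unit apart on every array, a 2.23-fold difference (log2 1.16, SE 0.19, unadjusted p = 0.00043, limma adjusted p = 0.152), and 1.13 without wild-type array 3. Over the alternatives the adjusted p of Nfkbia ran from 0.0135, with array weights, to 0.944. Traf6, a signal transducer, differed by -0.34. Foxi3, a placode factor, was not detected on any mutant array, and wild type was at least 1.24-fold above mutant (limma adjusted p = 0.791). Its probe was kept through the wild-type arrays alone, so the detection filter by itself favours this direction.

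Of 19 other follicle regulators, 6 were above 0 and 13 below (median -0.27, or -0.25 without wild-type array 3). Fgf22, a growth factor of the inner root sheath, read 8.24, 8.39 and 8.84 in wild type and 6.96, 7.21 and 5.56 in the mutants. All mutant arrays were below all wild-type arrays, a difference of -1.91 (SE 0.45, unadjusted p = 0.00368, limma adjusted p = 0.421) that was -1.74 without wild-type array 3. Cux1, a homeobox factor, differed by -0.82, and Cdh3, the P-cadherin of placode and matrix, by -0.54.

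Structural genes of the follicle, mostly keratins of its sheaths and shaft, were below 0 for 12 of the 13 measured, with a median of -0.74, or -0.47 without wild-type array 3. At an unadjusted p under 0.05, 2 were lower with all arrays (15.4%, against 3.39% of all probes) and 4 without that array (30.8%, against 3.98%), and 0 passed the adjusted threshold. In bo20 both mutant arrays were below both wild-type arrays for 11 of the 13 (84.6%, against 22.1%). Krt32, a hair cuticle keratin, read 6.02, 5.46 and 6.69 in wild type and 4.50, 4.48 and 4.79 in the mutants, where it was not detected, and wild type was at least 2.41-fold above mutant (limma adjusted p = 0.405, or 0.0289 with array weights). Krt34, a hair keratin, was likewise not detected on any mutant array (at least 1.36-fold, limma adjusted p = 0.766), and Krt79, a keratin of the upper follicle, differed by -0.74. Krt32 and Krt34 are the 2 lower genes with all arrays, and are among the 4 without wild-type array 3 and the 12 below 0. Krt32 is also among the 11 in bo20. Both were kept through the wild-type arrays alone, so the detection filter by itself favours their direction in the counts that hold them. The other 12 of the 25 listed were not measured, among them the defining genes Krt25, Krt85 and Tchh. The log2 of the summed level was 14.74, 14.73 and 14.06 in wild type and 14.19, 14.07 and 14.30 in the mutants. The sums overlapped through wild-type array 3 alone, and the other 2 wild-type arrays lay above all 3 mutant arrays. The part of follicle cell number in the differences of Ptch1, Gli2, Dlx3, Sox9 and Id2 was not tested.

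Markers of other cells were set beside these results. Of the 7 basal keratinocyte genes, 6 were below 0 (median -0.13) and all 7 without wild-type array 3 (median -0.25), and the log2 of the summed level, 15.56, 15.26 and 15.21 in wild type against 15.07, 15.03 and 14.97 in the mutants, did not overlap. Of 6 suprabasal genes, 4 were below 0 (median -0.16, or -0.15 without wild-type array 3), with sums of 16.06 to 16.42 and 16.24 to 16.40. Of 8 measured dermal papilla genes, 6 were below 0 (median -0.30, or -0.23 without wild-type array 3), and the log2 of the summed level was 10.46 to 10.85 in wild type and 10.43 to 10.75 in the mutants. Of 6 melanocyte genes, 5 were below 0 (median -0.23, or -0.31 without wild-type array 3), with sums of 11.37 to 11.73 and 11.01 to 11.59 and the defining gene Tyr not measured. Of 11 dermal fibroblast genes, 8 were above 0 (median 0.28, or 0.04 without wild-type array 3), with sums of 15.07 to 15.48 and 15.35 to 15.61. All 5 measured leukocyte genes were above 0 (median 0.61, or 0.58 without wild-type array 3), with sums of 10.02 to 10.50 in wild type and 11.48 to 11.58 in the mutants that did not overlap, and the defining gene Ptprc was not measured. All 6 skeletal muscle genes were above 0 (median 0.45) but -0.04 in the median without wild-type array 3, whose own deviation in these genes was -1.22. Of 6 endothelial genes, 2 were above 0 and 4 below (median -0.05), and the 3 Merkel cell genes measured, without the defining Atoh1 and Krt20, were above 0 (median 0.16). The part of these cells in the differences of the signalling genes was not tested.

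**Figure D5:**
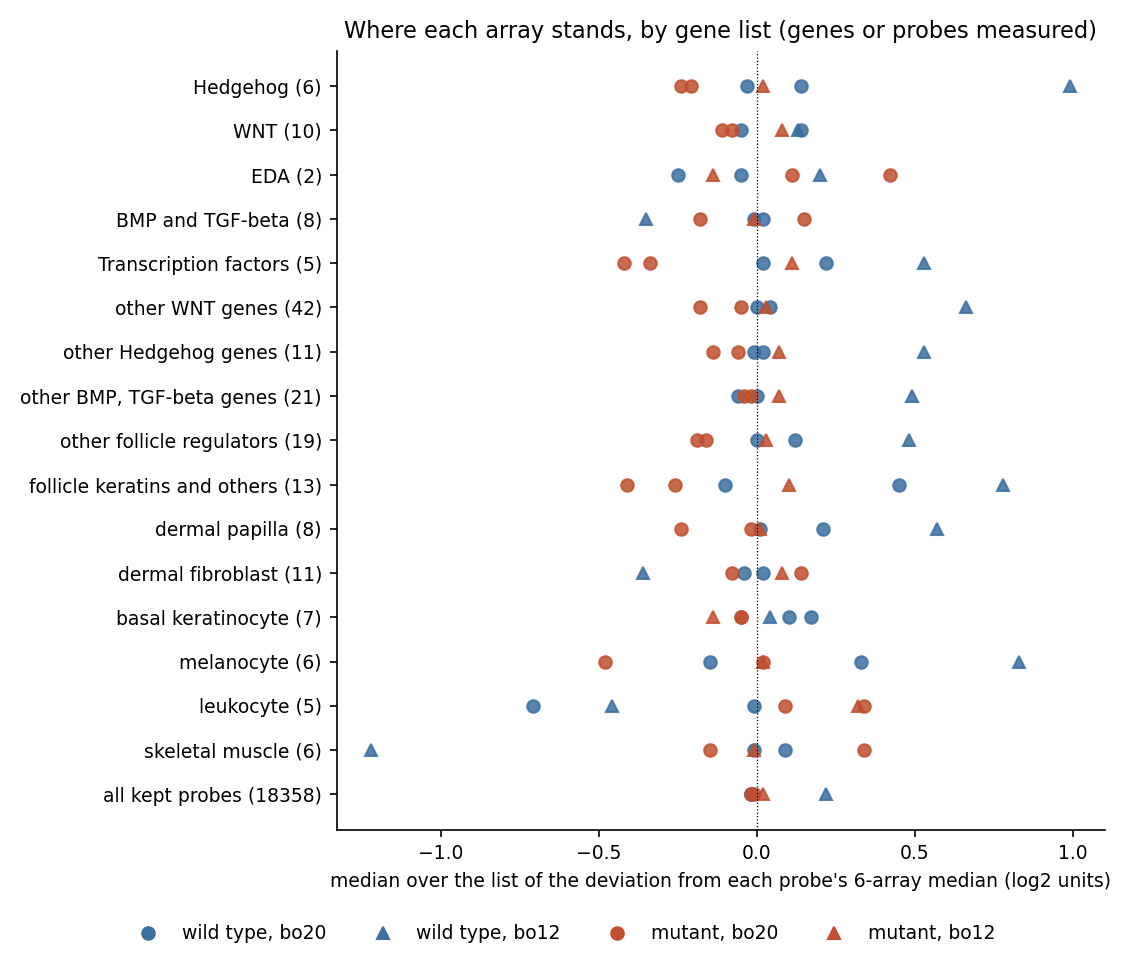
Median deviation of each array from each probe's median over the 6 arrays, in log2 units, for the signalling groups, other pathway genes and markers of other cells (wild type and mutant by colour, circles for bo20 and triangles for bo12). Wild-type array 3 is at 0.99 for Hedgehog genes and 0.53 for transcription factors, at -0.35 for BMP and TGF-beta genes and at 0.22 for all kept probes.

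Across these 16 alternatives, a gene's other probes not counted, 12 of the 31 genes kept 1 sign, 7 of them below 0 (Shh, Gli2, Ptch1, Bmp4, Sox9, Msx1 and Dlx3) and 5 above (Wnt10a, Fzd6, Id2, Tgfb2 and Trps1). The other 19 took both signs or reached 0 in at least 1 setting. The blocks for replicate number and prefix and the other detection filters leave each gene's estimate as it was. Those settings could therefore not change a sign.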

How the data were processed

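Total RNA of 3 wild-type and 3 mutant epidermal peels was measured on Illumina bead arrays, from 500 ng of labelled RNA each, per the labels' protocols. The authors deposited raw probe intensity without normalization, beside a detection score as a fraction from 0 to 1, read here as 1 minus the detection p, and a table of log2 values. BeadStudio is named per the submitters' processing notes, and no source used here gives its version, the array version, probe positions or a genome build. Recomputed from the raw values, the deposited log2 table came out as log2 intensity less the array's upper quartile and the probe's median over arrays. All 100% of its values lay within 0.001, and its column medians were 0.26, -0.01 and 0.33 for the wild-type samples by replicate number and -0.13, -0.13 and 0.01 for the mutants.

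Raw intensity was background-corrected (normexp in limma 3.58.1, offset 16, R 4.3.3), log2-transformed and quantile-normalized. Probes with a score above 0.95 on at least 3 arrays were kept (18358 of 45281, and 13743 on all 6), and the brightest kept probe stood for a gene. Of all probes 35784 carried 1 symbol, 0 several and 9497 none in the platform annotation, and symbols were updated through the RefSeq gene table of GRCm38.p6 for 28620 by Entrez identifier and 2637 by accession. Levels were not compared between probes. Groups were compared by limma's moderated test (lmFit, then eBayes), two-sided, with p-values adjusted by Benjamini-Hochberg over all kept probes and a threshold of 0.05, and the script was tested on simulated data. The 3 arrays per group limit the precision, and the labels call them biological replicates without naming their source, so p-values measure the spread between these samples.

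A fold against a group with no detecting array is a bound: on each array of that group the probe's value was raised, where lower, to the lowest detected value of the array before averaging. The named genes are all measured members, with every array for those at an unadjusted p under 0.05 and a set of pathway genes, and of each other list the 3 with the smallest p. Further arrays were printed after their values were seen. The members and lists were chosen with earlier results of these data known.

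Same-numbered samples deviated together (correlations of 0.270, 0.462 and 0.538), which met a rule for pairing that needs each above 0.1. The numbers were treated as pairs only in the alternative with a block for replicate number, and the main comparison was unpaired. Pairs with different numbers also passed that value, wild-type array 2 with mutant array 1 at 0.449 and wild-type array 1 with mutant array 2 at 0.191. Wild-type arrays 1 and 2 reached 0.545, above every same-numbered pair. Alternatives were no background correction, median scaling over all or over kept probes (the latter chosen after seeing the data), the deposited log2 table, other detection filters, array weights, blocks for replicate number and prefix, bo20 alone, leaving out each array, and the other kept probes of a gene.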

Additional observations from a re-analysis of the deposited data

Results flagged for a closer look

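Of the signalling genes, 4 had differences, mutant minus wild type, that differed between the title prefixes in a limma interaction test. The values are the bo12 difference minus the bo20 difference in log2 units. For Ctnnb1 the value was 4.35 (SE 0.33, limma adjusted p = 0.00049), from -0.12 in bo20 and 4.23 in bo12, and a second probe gave 3.08. For Bmpr1a it was 2.64 (SE 0.32, limma adjusted p = 0.00139), from 0.20 and 2.84, while its second probe gave -1.46. For Wnt10a, which has 1 probe, it was 1.68 (SE 0.33, limma adjusted p = 0.0137), from 0.32 and 2.00. For Eda2r it was -1.36 (SE 0.32, limma adjusted p = 0.0346), from 0.70 and -0.66. The test takes its spread from the bo20 arrays alone, since bo12 holds 1 array per group, and 1846 of the 18358 probes passed it.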

How the results depend on the processing

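Under every setting run, 0 of the 31 signalling genes passed an adjusted p of 0.05 in limma, while 0 to 129 of all probes did (129 with array weights, 51 without wild-type array 3). At an unadjusted p under 0.05, the count of genes higher in the mutants (1) became 4 under median scaling (12.9%, against 13.4% of all probes), 2 with array weights (6.45% against 8.67%), 3 with the prefix block (9.68% against 5.87%) and 2 with bo20 alone (6.45% against 6.99%). With an array left out it was 0 to 3, the most without wild-type array 2 (9.68% against 4.29%), while 1.19% to 5.74% of all probes were higher. The count of lower genes (3) became 0 under median scaling (against 0.425% of all probes) and in the deposited table (against 3.42%), 5 with array weights (16.1% against 7.21%) and 7 with the prefix block (22.6% against 7.23%). With an array left out it was 0 to 6, the most without wild-type array 2 (19.4% against 6.34%), while 1.39% to 6.34% of all probes were lower. With the replicate number as a block, the count of lower genes was 5 (16.1% against 5.31%) and that of higher genes 1 (3.23% against 3.9%), and the block changed no adjusted call. That block treats same-numbered samples as pairs, a pairing that the labels do not give. Among 115 other pathway and follicle genes, 2 passed the adjusted threshold with array weights, against 129 of all 18358 probes, and 0 in the other settings.

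Median scaling moved the median of all kept probes to 0.42, and scaling over kept probes, chosen after seeing the data, to -0.19. Under median scaling the median difference was 0.43 over all 31 genes, 0.01 for Hedgehog, 0.60 for WNT, 0.57 for EDA, 0.66 for BMP and TGF-beta and -0.02 for transcription factors. The median over all genes was -0.26 with probes detected on all arrays. The WNT median was -0.05 in the deposited table, -0.20 with probes detected on all arrays, -0.07 with array weights, -0.16 with bo20 alone and -0.09 to 0.06 with an array left out. The EDA median was 0.44 with bo20 alone. That of the transcription factors was -0.28 without background correction and in the deposited table, and -0.67 to -0.18 with an array left out. The median of Hedgehog genes ran from -0.82 to -0.22 with an array left out.

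Genes also changed sign. Median scaling gave Gli3 0.43, Smo 0.04, Axin2 0.22, Wnt3 0.16, Wnt4 0.18, Wnt5a 0.15, Wnt10b 0.57, Bmp7 0.09 and Id1 0.49, and among other pathway genes Evc2 0.07, Sufu 0.24, Traf6 0.26 and Cdh3 0.07, and scaling over kept probes gave Hhip -0.19, Edaradd 0.00, Eda2r -0.07 and Lhx2 -0.29. The deposited table gave Gli3 0.10, Hhip -0.15, Lef1 -0.05, Wnt10b 0.07, Dkk4 -0.04, Eda2r -0.10, Id1 0.19 and Lhx2 -0.17. Array weights gave Gli3 0.14, Ctnnb1 -0.05, Wnt10b 0.29, Dkk4 -0.13, Sostdc1 -0.34 and Lhx2 -0.10, and bo20 alone gave Gli3 0.10, Ctnnb1 -0.12, Wnt10b 0.28, Dkk4 -0.25, Sostdc1 -0.43 and Lhx2 -0.18. With an array left out, the range was -0.39 to 0.10 for Gli3, -0.50 to 2.28 for Ctnnb1, -0.25 to 0.30 for Wnt10b, -0.31 to 0.73 for Dkk4, -0.11 to 0.23 for Edaradd, -0.41 to 0.28 for Sostdc1, -0.01 to 1.66 for Bmpr1a, -0.32 to 0.07 for Id1, -0.08 to 0.41 for Id3 and -0.03 to 0.33 for Lhx2. Other probes gave Lef1 -0.34, Ctnnb1 -0.50, Wnt5a 0.29, Sox9 0.04 and Trps1 -0.87. Apart from the left-out arrays, the cause of these changes was not tested. Low signal limits Lef1, Hhip, Lhx2 and Eda2r, and also Dkk4 and Msx1, which were not detected on every array. Another 5 genes lay at background throughout.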
